A study of Mus musculus with 12 samples.

Results

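The interleukins made by myeloid cells were followed through the cell types of PyMT breast tumors. The 10 genes were taken by name from the 31053 genes counted in the series: *Il1a*, *Il1b*, *Il1rn* and *Il18* of the IL-1 family, *Il6*, *Il10*, the IL-12 family genes *Il12b*, *Il23a* and *Il27*, and *Il15*. All 10 were found, and 9 of them had at least 100 UMIs in the gated myeloid cells. In PyMT mice the middle T oncogene of polyoma virus, driven by the MMTV promoter, causes spontaneous breast tumors. Their tumors grew in mice with signaling-competent PAR2 (PyMT-PAR2 WT) or with the PAR2 G37I variant that resists signaling by coagulation factor Xa (PyMT-PAR2 G37I), without further treatment. CD11c-selected cells of late-stage tumors and CD4/CD8-selected cells of mid-size tumors each came from 3 replicates per genotype. The cells were frozen, thawed, and sequenced on the 10x Genomics platform, which counts mRNA molecules by unique molecular identifiers (UMIs).

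The CD11c-selected matrix held 11639 cells with at least 200 detected genes and 123642015 UMIs, and the CD4/CD8-selected matrix held 22806 cells and 135965765 UMIs. Each matrix pools 6 samples, and its barcodes carry no sample name. A matrix was therefore treated as 1 sample, genotypes were not compared, and no p-values are given. The barcodes run through the alphabet 6 times in each matrix, and these 6 barcode runs, which were linked to no sample or genotype, serve to describe how a value varied within a matrix and are no replicates. Within the matrices 76 and 51 barcodes were repeated, and 92 were shared between the matrices. The 6 runs held 360 to 2784 CD11c-selected cells and 2344 to 5173 CD4/CD8-selected cells.

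IL-1α and IL-1β signal through the same receptor, IL-1RA (*Il1rn*) occupies that receptor without signaling, and IL-18 is a relative that, like IL-1β, is cut to its active form by caspase-1. IL-6 acts through gp130 in inflammation and IL-10 restrains the activation of macrophages and DCs. The p40 chain encoded by *Il12b* pairs with p35 (*Il12a*) to form IL-12 and with p19 (*Il23a*) to form IL-23, while *Il27* encodes the p28 chain that pairs with *Ebi3*. IL-15 is presented on its receptor chain IL-15Rα to T and NK cells.

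Cells were placed in gates by raw UMIs of marker genes, none of which was an interleukin. The 9 myeloid gates of the CD11c-selected cells were resident-like macrophages (386 cells, by *Lyve1*, *Cd209f*, *Cd209g*, and *Fcna*), lipid-associated macrophages (502 cells, by *Gpnmb* and *Trem2*), *Retnla Ear2* myeloid cells (499 cells), other macrophages with high C1q transcripts (3825 cells), monocytes (57 cells, by *Ly6c2* and *Plac8*), cDC1 (407 cells, by *Xcr1* and *Clec9a*), cDC2 (227 cells, by *Cd209a* and *Flt3*), migratory DCs (203 cells, by *Fscn1* and *Ccr7*), and neutrophils (113 cells, by *S100a8*, *S100a9*, and granulocyte genes). T cells (57), epithelial cells (290), and fibroblasts (85) served as cell types outside the myeloid gates. A further 4913 cells, with a median of 2610 UMIs, met no gate, and 75 cells met 2 gates and were left out. Of the markers not used to set a gate, all of 5 resident-like, 6 of 6 lipid-associated, 6 of 6 migratory DC, 6 of 6 neutrophil, and 4 of 6 cDC1 markers were highest in their own gate. Only 2 of 6 monocyte markers and 1 of 6 cDC2 markers were, so these names stand for the limits of the gates. Median UMIs per cell ranged from 3065 in neutrophils to 20981 in lipid-associated macrophages. A level is the number of UMIs of a gene in all cells of a gate, scaled to 1000000 UMIs of that gate (CPM), with an exact 95% Poisson interval that covers counting error only.

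The promoters of 4 of these genes are shown because the results below turn on them. *Il1a* and *Il1b* are neighbors on chromosome 2, 54597 bases apart and on the same strand, and had unlike patterns over the gates. *Il6* and *Il12b* each had a gate that led the other myeloid gates, although *Il6* was higher in fibroblasts than in any of them. RefSeq (GRCm38.p6) gave a promoter for 6 of the 10 genes. Each sequence is the 250 bases before the transcription start site, 5′ to 3′ on the strand of the gene, with motif matches in capitals. They lie at chr2:129309973-129310222 (minus strand), chr2:129371140-129371389 (minus strand), chr5:30012864-30013113 (plus strand), and chr11:44399813-44400062 (plus strand), respectively.
Il1a: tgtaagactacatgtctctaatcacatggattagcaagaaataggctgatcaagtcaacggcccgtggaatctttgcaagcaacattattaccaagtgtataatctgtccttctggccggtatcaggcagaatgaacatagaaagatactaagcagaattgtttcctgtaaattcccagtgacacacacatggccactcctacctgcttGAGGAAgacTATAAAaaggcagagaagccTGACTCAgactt
Il1b: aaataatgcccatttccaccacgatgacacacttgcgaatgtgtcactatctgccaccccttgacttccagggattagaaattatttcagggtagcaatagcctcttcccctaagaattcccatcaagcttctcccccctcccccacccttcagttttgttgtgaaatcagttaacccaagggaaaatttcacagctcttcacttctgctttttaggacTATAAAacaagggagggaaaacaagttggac
Il6: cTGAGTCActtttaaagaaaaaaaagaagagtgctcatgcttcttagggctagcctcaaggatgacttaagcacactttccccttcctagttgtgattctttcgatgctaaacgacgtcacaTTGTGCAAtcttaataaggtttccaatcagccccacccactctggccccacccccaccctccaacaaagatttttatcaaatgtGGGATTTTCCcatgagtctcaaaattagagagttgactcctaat
Il12b: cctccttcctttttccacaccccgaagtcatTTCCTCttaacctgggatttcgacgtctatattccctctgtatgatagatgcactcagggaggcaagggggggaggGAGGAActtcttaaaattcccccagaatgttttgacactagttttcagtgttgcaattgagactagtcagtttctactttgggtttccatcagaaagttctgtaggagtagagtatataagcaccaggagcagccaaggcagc
The motifs searched were TATAAA on the strand of the gene, and on both strands TTGCNNAA (C/EBP), TGANTCA (AP-1), GAGGAA (PU.1), GAAANNGAA (IRF), and the NF-κB consensus by its usual degenerate form. TATAAA stood 32 bases before the start site in *Il1a* and 31 bases before it in *Il1b*, and 7.59% of all 32851 promoters of the same length held it. The *Il1a* promoter also held GAGGAA and TGACTCA, while *Il1b* held no other match. The *Il6* promoter held an AP-1 match, a C/EBP match and, 44 bases before the start site, an NF-κB match, which 9.56% (C/EBP), 6.75% (AP-1), and 3.90% (NF-κB) of all promoters held. The *Il12b* promoter held GAGGAA on each strand, a motif of 23.3% of all promoters, and no promoter of the 6 genes held the IRF motif (7.13% of all). No matches overlapped in these 4 sequences, and a match describes letters, not binding.

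*Il1b*, at chr2:129364570-129371139, was highest in neutrophils and lowest, among the myeloid gates, in resident-like macrophages. Neutrophils held 7312 CPM (7038 to 7593) and the *Cd209a Flt3* cDC2 gate 4835 CPM (4760 to 4911), so neutrophils were 1.51-fold higher and the intervals did not overlap. Monocytes followed at 3220.2 CPM, other macrophages at 1876 CPM, *Retnla Ear2* cells at 1530.0 CPM, and migratory DCs at 1420.4 CPM. cDC1 held 837 CPM, lipid-associated macrophages 609 CPM, and resident-like macrophages 149 CPM. Neighbors in this order had intervals apart from each other, but the ranges over runs did not separate *Retnla Ear2* cells (831 to 2377 CPM), other macrophages (1252 to 2358 CPM), and migratory DCs (1278 to 1513 CPM). The runs of cDC1, from 316 to 1386 CPM, overlapped these 3 gates and lipid-associated macrophages (543 to 669 CPM). Only 1 run had at least 20 monocytes, and it held 1715 CPM, inside the run range of other macrophages.

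The top of the *Il1b* order held in every run that could show it. In the 3 runs with at least 20 neutrophils *Il1b* was at 6649, 6888, and 9914 CPM, and neutrophils were the highest gate in 3 of 3. In cDC2 the 5 runs with enough cells lay between 3994 and 5761 CPM, with a median of 5475 CPM. Resident-like macrophages had 87.9 to 254 CPM over 6 runs, below every run of the other 8 gates. In cells outside the myeloid gates *Il1b* was at 129 CPM in T cells, 48.1 CPM in fibroblasts, and 33.6 CPM in epithelial cells. The interval of resident-like macrophages overlapped that of T cells (95.1 to 172 CPM) and lay above those of fibroblasts and epithelial cells. The T cell value came from 47 UMIs, 42 of them in 26 CD8 T cells, and the 1 run with at least 20 T cells was at 36.7 CPM, below every run of resident-like macrophages.

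**Figure D1:**
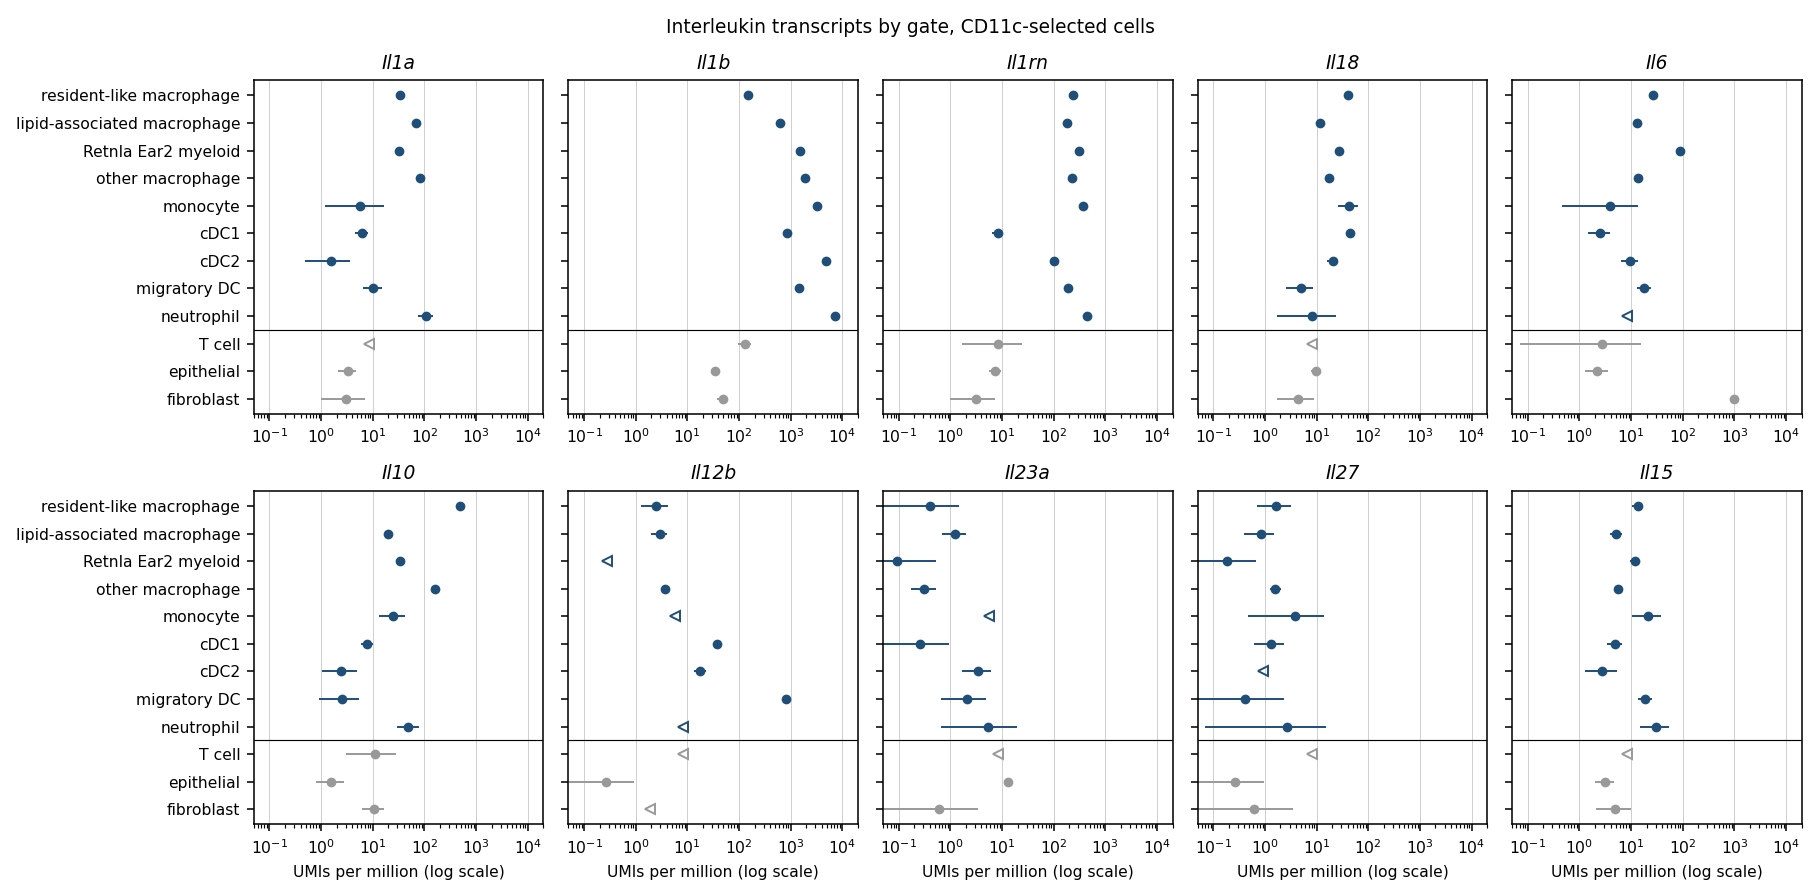
Level of each of the 10 interleukin genes (UMIs per 1000000, log axis) in 9 myeloid gates (blue) and 3 other gates (gray) of the CD11c-selected cells. Points are sums over the cells of a gate, bars exact 95% Poisson intervals (those reaching below the axis are clipped), and open triangles the level that 0 UMIs allow (3 counts). *Il12b* stands out in migratory DCs at 796 CPM, *Il10* in resident-like macrophages at 491 CPM, and *Il6* in fibroblasts at 969 CPM.

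*Il1b* was also spread over many cells where it was high. After each cell was thinned to 2000 UMIs, 95.8% of 95 neutrophils (exact interval 89.6 to 98.8%) and 86.7% of 226 cDC2 (81.6 to 90.9%) held an *Il1b* UMI. The share was 60.7% in other macrophages, 43.7% in cDC1, 29.6% in lipid-associated macrophages, and 13.3% in resident-like macrophages. Outside the myeloid gates the share was 12.3% in T cells (5.08 to 23.7%, median depth 4530 UMIs), 3.54% in epithelial cells (1.63 to 6.62%), and 2.53% in fibroblasts (0.308 to 8.85%). The interval of resident-like macrophages (10.1 to 17.2%, median depth 9742.5 UMIs) overlapped that of T cells and lay above the other 2. Without thinning these shares were 93.8% in neutrophils, 94.7% in cDC2, 29.8% in resident-like macrophages and 17.5% in T cells. Thinning left out 18 neutrophils and at most 79 cells of any other myeloid gate. The cells that met no gate held 32.3% of all *Il1b* UMIs of the matrix, at 2709.8 CPM.

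*Il1a*, encoding the other ligand of the IL-1 receptor at chr2:129299610-129309972, followed a different order. It was at 106 CPM in neutrophils (75.4 to 145, from 39 UMIs), 80.3 CPM in other macrophages (77.7 to 83.0), and 69.9 CPM in lipid-associated macrophages (65.2 to 74.7). The intervals of neutrophils and other macrophages overlapped. In neutrophils the value rested on barcode run 6, which held 32 of the 39 UMIs at 155 CPM, against 53.4 and 18.8 CPM in the other 2 runs with enough cells. Resident-like macrophages (33.6 CPM) and *Retnla Ear2* cells (32.2 CPM) had overlapping intervals, and the lowest gate was cDC2 with 5 UMIs and 1.53 CPM (0.498 to 3.58).

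Within a gate the number of *Il1b* UMIs per *Il1a* UMI therefore varied widely. It was 4.45 in resident-like macrophages, 8.72 in lipid-associated macrophages, 23.4 in other macrophages, and 47.6 in *Retnla Ear2* cells. Neutrophils had 69.0 and cDC1 138, while cDC2 had 15749 *Il1b* UMIs beside the 5 of *Il1a*. Other macrophages with an *Il1a* UMI held *Il1b* more often (76.3% of 358 cells, 71.5 to 80.6%) than those without (59.0% of 3388 cells, 57.4 to 60.7%), at 2000 UMIs per cell. Both genes lie over antisense transcripts (*Gm14023* over *Il1a* and *Il1bos* over *Il1b*), and whether reads were counted by strand is not given in the sources used here.

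*Il1rn*, encoding the IL-1 receptor antagonist at chr2:24336853-24351494, was found in every macrophage gate and in cDC1 was near its level in T cells and epithelial cells. Neutrophils held 451 CPM (385 to 525) and monocytes 376 CPM (326 to 433), with overlapping intervals, and *Retnla Ear2* cells held 316 CPM (305 to 327). The runs did not separate these 3 gates, and neutrophils were the highest gate in 1 of 3 runs. Neutrophils lay between 245 and 464 CPM, *Retnla Ear2* cells between 226 and 385 CPM, and the 1 monocyte run was at 268 CPM. Resident-like (240.0 CPM) and other macrophages (231 CPM) did not differ beyond their intervals, nor did migratory DCs (193 CPM) and lipid-associated macrophages (182 CPM). cDC2 held 103 CPM, whereas cDC1 held 8.27 CPM (6.37 to 10.6), close to 8.26 CPM in T cells and 7.46 CPM in epithelial cells. In cDC1 this held in each of the 6 runs (2.92 to 18.9 CPM), while the lowest run of any other macrophage or DC gate was at 73.9 CPM. The share of thinned cells with an *Il1rn* UMI was 42.1% in neutrophils, 40.6% in *Retnla Ear2* cells, 33.3% in resident-like macrophages, and 1.23% in cDC1.

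*Il18*, at chr9:50554827-50581840, ran nearly opposite to *Il1rn* in the DC gates. cDC1 held 44.6 CPM (40.0 to 49.5), monocytes 42.0 CPM (26.3 to 63.7), and resident-like macrophages 40.7 CPM (35.2 to 46.7), and these 3 intervals overlapped. *Retnla Ear2* cells followed at 26.9 CPM, cDC2 at 20.9 CPM, other macrophages at 17.3 CPM, and lipid-associated macrophages at 11.9 CPM. Migratory DCs were lowest with 4.98 CPM (2.57 to 8.70), and their highest run (7.32 CPM) was below the lowest run of cDC1 (30.7 CPM). Epithelial cells held 9.95 CPM. *Bco2* and *Tex12* overlap *Il18* on the opposite strand.

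*Il6*, at chr5:30013114-30019981, was led among the myeloid gates by the *Retnla Ear2* cells. They held 88.6 CPM (83.0 to 94.4), or 3.27-fold the 27.1 CPM of resident-like macrophages (22.6 to 32.1). Migratory DCs held 17.8 CPM, other macrophages 13.5 CPM, lipid-associated macrophages 12.9 CPM, and cDC2 9.52 CPM, and neutrophils had 0 UMIs, which allows up to 8.15 CPM. The *Retnla Ear2* gate was the highest in 6 of 6 runs, between 42.0 and 119.9 CPM with a median of 94.0 CPM, and resident-like macrophages lay between 8.52 and 72.0 CPM. The ranges of these 2 gates therefore overlapped over runs, although not within a run. Cells that met no gate held 25.5% of all *Il6* UMIs in the matrix, at 51.6 CPM, and cells that met 2 gates were at 101 CPM.

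Fibroblasts held more *Il6* than any myeloid gate. Their 85 cells gave 1570 UMIs, 30.9% of all *Il6* UMIs in the matrix, at 969 CPM (922 to 1018). The 2 runs with at least 20 fibroblasts held 819.8 and 1354 CPM. At 2000 UMIs per cell, 44.3% of fibroblasts (33.1 to 55.9%) and 15.9% of *Retnla Ear2* cells (12.8 to 19.4%) held an *Il6* UMI. Of 5 fibroblast markers, *Lum*, *Pdgfra*, and *Mmp2* had 0 UMIs in the thinned *Retnla Ear2* cells, with or without *Il6*. *Col1a2* had 1 UMI in the 79 cells with *Il6* and 1 in the 419 without, and *Sparc* had 0 and 4. Of the 5 markers checked in the *Retnla Ear2* gate, *Lyz1* (lysozyme) was higher in the cells with *Il6*, at 1228 against 943 CPM, and the intervals of *Fn1*, *Ccr2*, *Aldh1a2*, and *Cebpe* overlapped. In other macrophages all 598 *Il6* UMIs came from 137 of 3825 cells, with 94 in the highest cell.

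*Il10*, at chr1:131019845-131024974, was a transcript of resident-like and other C1q macrophages. Resident-like macrophages held 491 CPM (472 to 511), 3.04-fold the 162 CPM of other macrophages (158 to 165). Neutrophils held 48.9 CPM from 18 UMIs, all of barcode run 6, *Retnla Ear2* cells 32.9 CPM, monocytes 24.8 CPM, and lipid-associated macrophages 19.3 CPM, whereas cDC2 (2.46 CPM) and migratory DCs (2.49 CPM) were lowest. Resident-like macrophages were the highest gate in 6 of 6 runs, between 307 and 741 CPM with a median of 509 CPM. Other macrophages lay between 92.8 and 365 CPM over the runs, so the ranges overlapped at 1 run of other macrophages, although within each run resident-like macrophages were higher. At 2000 UMIs per cell, 38.7% of 375 resident-like macrophages (33.7 to 43.8%) and 15.9% of 3746 other macrophages (14.7 to 17.1%) held an *Il10* UMI, against 3.51% of T cells. Because of their number, other macrophages held 59.5% of all *Il10* UMIs and resident-like macrophages 20.1%.

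The *Il10* transcripts of other macrophages sat in a minority of cells that shared genes with the resident-like gate. The tenth of cells with the most *Il10* held 80.9% of its UMIs there. At equal depth, the 594 other macrophages with an *Il10* UMI were higher than the 3152 without in all of 5 resident-like markers. *Cbr2*, a carbonyl reductase, was at 229.8 against 55.8 CPM (4.12-fold), *F13a1*, encoding coagulation factor XIII A, at 572 against 147 CPM (3.90-fold), and *Folr2*, a folate receptor, at 239 against 71.2 CPM (3.36-fold). *Mrc1*, the mannose receptor, and *Pf4*, platelet factor 4, were 2.81-fold and 2.80-fold higher. Each of these markers was higher with *Il10* in all 5 runs that had at least 20 cells of each kind. Other macrophages met no other gate, so resident-like cells below the limits of that gate can be among them. Their part was not tested. Of 6 lipid-associated markers, *Arg1* (0.31-fold), *Spp1* (0.50-fold), *Fabp5* (0.65-fold), and *Lgals3* (0.68-fold) were lower with *Il10*, and the other 2 had overlapping intervals. Inside the resident-like gate, the 145 cells with *Il10* and the 230 without had overlapping intervals in 4 of the 5 markers, and *Pf4* was lower with it (1810.3 against 2165 CPM).

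*Il1b* ran the other way in the same macrophages. The 2273 other macrophages with an *Il1b* UMI were lower than the 1473 without in all of 5 resident-like markers, from 0.209-fold for *Folr2* (39.4 against 188 CPM) to 0.491-fold for *Mrc1* (389 against 793 CPM). This held for each marker in 6 of 6 runs. Lipid-associated markers were also lower in cells with *Il1b* for *Spp1* (osteopontin), *Fabp5*, and *Lgals3*, and the intervals of *Arg1*, *Htr2b*, and *Atp6v0d2* overlapped. Of 6 monocyte markers none had intervals apart, which does not exclude a difference. *Ms4a4c* was at 127 CPM with *Il1b* against 107 CPM without, and *Ccr2* at 236 against 261 CPM. The rest had at most 32 UMIs in either group. *Il10* itself was found in 15.4% of cells with *Il1b* (14.0 to 17.0%) and in 16.5% of cells without (14.6 to 18.5%), with overlapping intervals. *Il10* was found in 27.1% of cells with *Il1rn* (24.2 to 30.1%) and in 12.2% of cells without (13.4% at most). These contrasts, and those inside other gates, were chosen after the values had been seen.

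**Figure D2:**
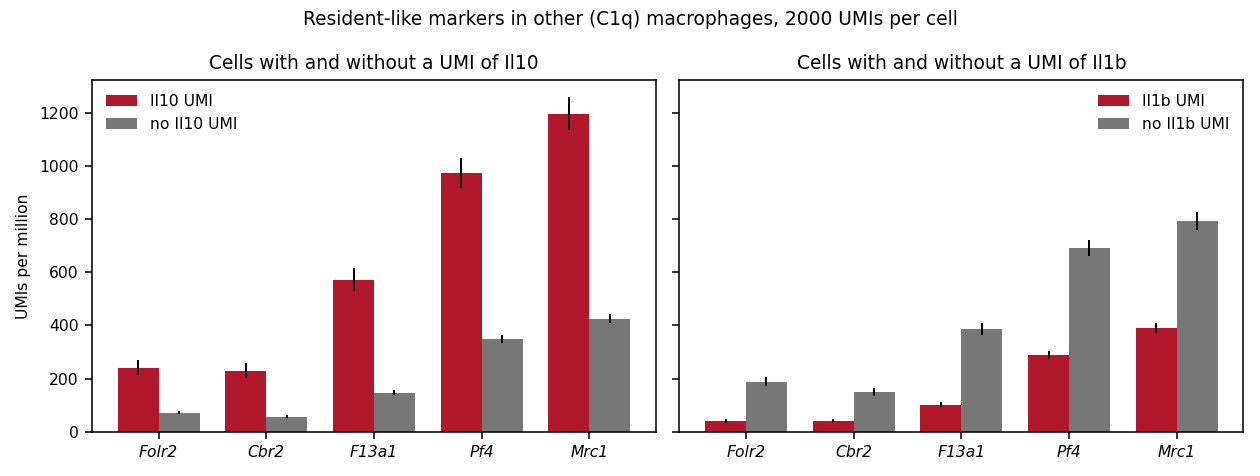
Levels of 5 resident-like macrophage markers (UMIs per 1000000) in other (C1q) macrophages with (red) and without (gray) a UMI of *Il10* (left) or *Il1b* (right), each cell thinned to 2000 UMIs. Bars are sums over cells with exact 95% Poisson intervals. All 5 markers are higher in cells with *Il10* and lower in cells with *Il1b*.

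*Il12b*, at chr11:44400063-44414033, had the largest fold between its highest and next gate of the 9 genes with at least 100 UMIs. Migratory DCs held 796 CPM (761 to 833), 20.98-fold the 37.97 CPM of cDC1 (33.8 to 42.6), and cDC2 held 17.5 CPM (13.3 to 22.7). The 3 macrophage gates were at 3.68 CPM or below, and *Retnla Ear2* cells, monocytes, and neutrophils had 0 UMIs, which allows up to 0.280, 5.73, and 8.15 CPM. Migratory DCs were the highest gate in 5 of 5 runs, between 508 and 1199 CPM with a median of 879 CPM. The highest run of cDC1 was at 96.4 CPM, so the ranges did not overlap. Among migratory DCs, 46.2% (39.1 to 53.4%) held an *Il12b* UMI at 2000 UMIs per cell, against 1.73% of cDC1.

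In cDC1, *Il12b* came from very few cells. Its 294 UMIs lay in 20 of 407 cells, and the 5 highest cells held 250 of them. *Ccr7*, the chemokine receptor that takes DCs to lymph nodes, was detected in 9 of these 20 cells (45.0%) and in 46 of the 387 cells without *Il12b* (11.9%), at median depths of 17716 and 17079 UMIs. *Fscn1*, the other gene that set the migratory gate, was in 0 of the 20 and 2 of the 387. cDC1 with at least 3 UMIs each of *Ccr7* and *Fscn1* met 2 gates and had been left out, which limits the counts of both genes. *Cacnb3*, another migratory marker, was in 1 of the 20 (5%) and 32 of the 387 (8.27%). A further 547 *Il12b* UMIs lay in the 75 cells that met 2 gates, of which 398 came from 2 of 3 cells that met both the migratory DC and cDC1 gates. Cells that met no gate held 980 *Il12b* UMIs, 24.4% of all in the matrix, at 39.1 CPM, while migratory DCs held 47.9%. Within migratory DCs, the 91 cells with *Il12b* had more *Irf8*, a transcription factor of cDC1, than the 106 without (1676 against 1009 CPM) and more *Cacnb3* (797 against 429 CPM). The other 5 cDC1 markers, all 6 cDC2 markers including *Irf4* and *Sirpa*, and the other 5 migratory markers had overlapping intervals. Of those cDC1 markers, *Batf3* (0.73-fold), *Naaa* (0.47-fold), and *Wdfy4* (0 against 6 UMIs) were lower with *Il12b*. *Cadm1* was higher (1.55-fold, 4 against 3 UMIs), and *Snx22* had 0 UMIs in both groups.

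**Figure D3:**
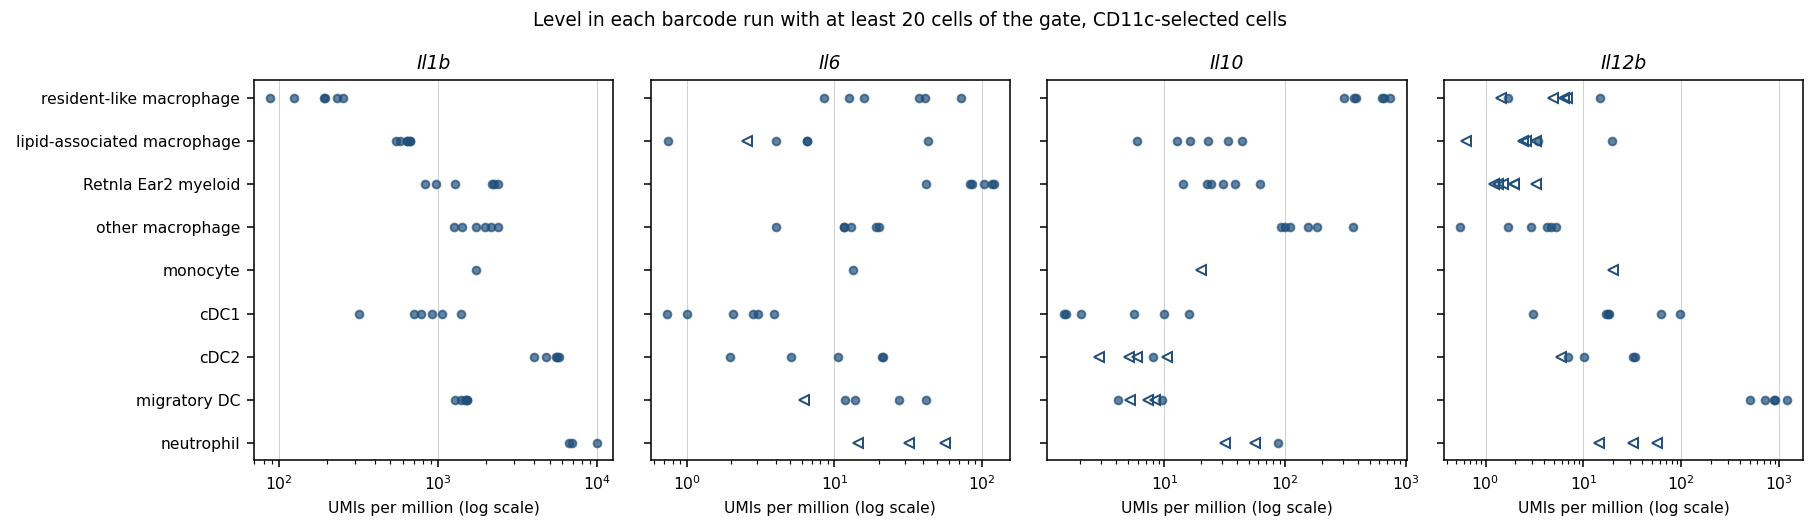
Levels of *Il1b*, *Il6*, *Il10*, and *Il12b* (UMIs per 1000000, log axes with different ranges) in each barcode run of the CD11c-selected cells with at least 20 cells of the gate. Circles are runs, and open triangles the level that 0 UMIs allow. *Il12b* in migratory DCs lies at 508 to 1199 CPM, apart from all other gates, and *Il1b* is lower in resident-like macrophages than in every other myeloid gate in all 6 runs.

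The partner chains of *Il12b* were too sparse in the myeloid gates to show whether they followed it. *Il23a*, at chr10:128296139-128298752, had 52 UMIs in all myeloid gates and at most 5.44 CPM (2 UMIs in neutrophils), with 3.38 CPM in cDC2 and 2.07 CPM in migratory DCs. *Il12a* had 9 UMIs in the myeloid gates and 0 in migratory DCs. The highest *Il23a* level was outside the myeloid gates, in epithelial cells, at 13.3 CPM (10.9 to 16.2) from 102 UMIs, 56.4% of all in the matrix. In epithelial cells these UMIs lay in 42 of 290 cells, and the tenth with the most held 87.3%. *Il27*, at chr7:126589010-126594941 and overlapping *Apobr* on the opposite strand, had 105 UMIs in the myeloid gates, of which 71 in other macrophages at 1.60 CPM. No gate exceeded 3.82 CPM and the intervals of the 3 macrophage gates overlapped. Its partner *Ebi3* was at 50.2 CPM in migratory DCs and 50.04 CPM in cDC2.

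*Il15*, at chr8:82331632-82403222, was low in all gates. Neutrophils held 29.9 CPM (14.9 to 53.5) and monocytes 21.02 CPM (10.5 to 37.6), each from 11 UMIs, and migratory DCs held 18.7 CPM (13.6 to 24.98) from 45. Resident-like macrophages held 13.4 CPM and *Retnla Ear2* cells 11.7 CPM. The intervals of these 5 gates formed an unbroken series of overlaps. Other macrophages, lipid-associated macrophages, and cDC1 lay between 4.91 and 5.58 CPM, and cDC2 held 2.76 CPM. *Il15ra*, the chain that presents IL-15, was by contrast at 79.2 CPM in migratory DCs and 9.56 CPM in monocytes, the next gate.

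A gene was said to have a leading gate when its highest myeloid gate was at least 2-fold above the next. This was the case for 3 of the 9 genes with at least 100 UMIs (33.3%), namely *Il6*, *Il10*, and *Il12b*, beside 15.3% of all 11111 genes with as many UMIs. The median fold of the highest over the next gate was 1.42 for the 9 genes and 1.26 for all genes. With 9 genes this is a description of the list and no test of it. Among all genes with a leading gate, neutrophils led 37.4%, migratory DCs 19.4%, resident-like macrophages 18.7%, and *Retnla Ear2* cells 4.83%.

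The genes with patterns most like each interleukin were sought by the correlation of log2(CPM + 1) over 51 pools of 1 gate and 1 run, without the gate markers. Pools of 1 gate share their cell type and pools of 1 run a stretch of the barcode list, so the correlations describe the gates more than independent samples. *Il10* was most like *Pf4* (r = 0.88), *Trpv4* (0.86), and *Selenop* (0.86), of which *Pf4* is a resident-like marker. *Il12b* was most like *Strip2* (0.88), *Ccl22* (0.86), and *Arl5a* (0.84), with *Ccl22* a chemokine of migratory DCs. *Il1b* was most like *Snx20* (0.92), *Nfkbie* (0.92), an inhibitor of NF-κB, and *Stap1* (0.89). *Il1rn* was most like *Osm* (0.91), encoding oncostatin M, *Ptafr* (0.90), and *Lilr4b* (0.90), and *Il1a* was most like *C5ar1* (0.86), the C5a receptor, *Rab20* (0.86), and *Slc11a1* (0.84). *Il23a* followed the epithelial genes *Cxadr* (0.81) and *Krt14* (0.80) and *Bglap3* (0.80), and *Il6* followed *Fn1* (0.76), fibronectin, *Tppp3* (0.75), and *Eng* (0.75). *Il18* was most like *Gm46224* (0.81), *Rnf141* (0.80), and *March1* (0.80), and *Il15* most like *Cers6* (0.72), *Gabarap* (0.72), and *Gm21188* (0.71). The values were lowest for the sparse *Il27*, at 0.53 (*Tha1*), 0.53 (*Asb2*), and 0.52 (*Sft2d1*). Between the interleukins themselves r was at most 0.66 (*Il1rn* with *Il15*, and *Il1a* with *Il10*), and it was 0.17 for *Il1a* with *Il1b*.

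The 3 macrophage gates could also be measured among the CD4/CD8-selected cells, where they had come through the other bead selection. These were 74 resident-like, 398 lipid-associated, and 430 other macrophages, and 345 of the 398 lipid-associated cells came from barcode run 3. Resident-like macrophages again held the most *Il10* and the least *Il1b* of the 3 gates. *Il10* was at 434 CPM there (388 to 484), beside 491 CPM among CD11c-selected cells, and *Il1b* at 101 CPM (79.1 to 126), beside 149 CPM. *Il10* in other macrophages was lower in this matrix, at 65.7 against 162 CPM, with runs from 21.04 to 121 CPM here and from 92.8 to 365 CPM there. In lipid-associated macrophages it was at 65.2 against 19.3 CPM, but the 2 runs with at least 20 of these cells held 16.8 CPM (24 cells) and 71.3 CPM (345 cells), and the CD11c-selected runs held 5.98 to 44.0 CPM. In lipid-associated macrophages *Il1b* was at 241 against 609 CPM, and the 2 runs with at least 20 of these cells held 185 and 767 CPM. *Il6* in other macrophages was at 1.46 against 13.5 CPM, with runs up to 2.33 CPM here and from 4.04 CPM there. In resident-like macrophages *Il6* was higher here, at 75.1 against 27.1 CPM, but no run here held 20 of these cells. *Il1a* in other macrophages was at 157 against 80.3 CPM, and its runs overlapped (51.4 to 275 CPM here and 54.4 to 95.6 CPM there). The number of *Il1b* UMIs per *Il1a* UMI had the same order in both matrices, from resident-like (1.39 here) through lipid-associated (2.89) to other macrophages (9.74). Tumor stage, bead selection, and library differ between the matrices and cannot be told apart.

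**Figure D4:**
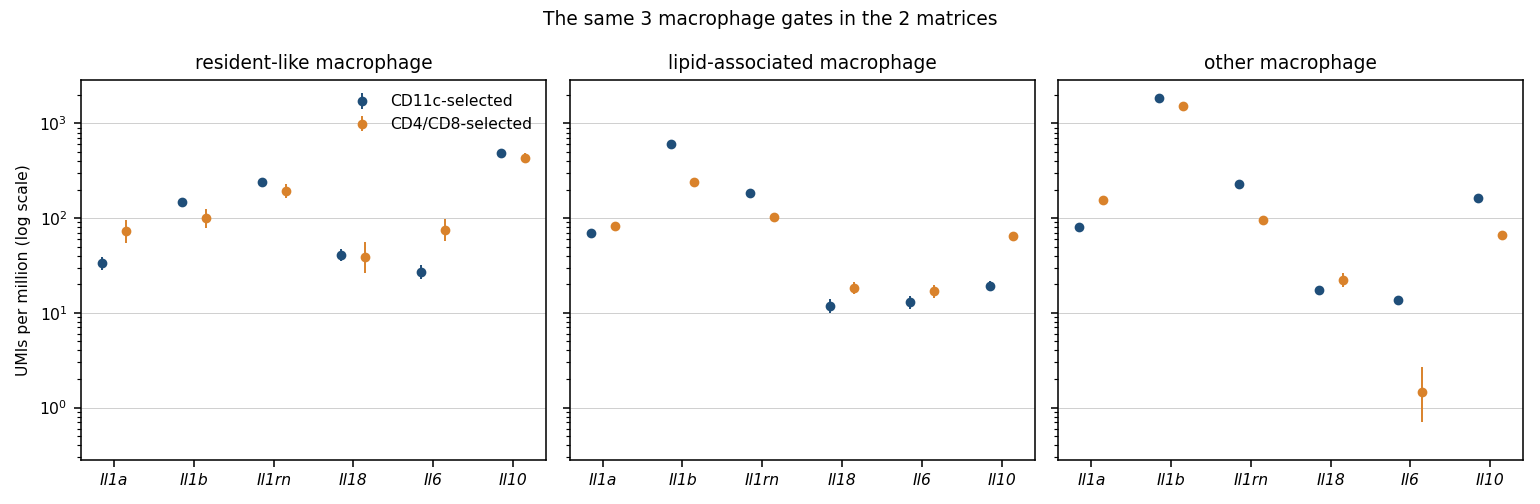
Levels of 6 interleukin genes (UMIs per 1000000, log axis) in the same 3 macrophage gates of the CD11c-selected (blue) and CD4/CD8-selected (orange) cells. Points are sums over the cells of a gate and bars exact 95% Poisson intervals. *Il10* is highest in resident-like macrophages in both matrices, at 491 and 434 CPM.

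T cells were nearly free of these transcripts. Among the 18112 T cells of the CD4/CD8-selected matrix, *Il1b* was at 2.78 CPM, *Il10* at 1.79 CPM, *Il15* at 1.66 CPM, and *Il18* at 0.672 CPM, and each of the other 6 genes was at 0.351 CPM or below. The 573 CD4 T cells held 15.8 CPM of *Il10* (11.4 to 21.4) against 1.21 CPM (0.994 to 1.46) in the 16150 CD8 T cells. These *Il10* UMIs lay in 3.66% of the CD4 T cells, and 357 of the 573 cells came from barcode run 1. *Il1b* was at 16.6 CPM in the CD4 T cells, but all 44 UMIs lay in 1 cell. The part of free RNA in these values was not tested.

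Receptors, partners, and signaling genes of the interleukins, 41 genes in all, were read in the same gates. Of the 30 with at least 100 UMIs, 10 had a leading gate (33.3%), beside 15.3% of all genes. They were 4 in migratory DCs, 4 in neutrophils, 1 in lipid-associated macrophages, and 1 in *Retnla Ear2* cells, and neutrophils and migratory DCs also led the most of all genes (37.4% and 19.4% of those with a leading gate). The 4 in neutrophils were the IL-1 receptor *Il1r1* (21.7 CPM), its accessory chain *Il1rap* (169 CPM), the decoy receptor *Il1r2* (3150.2 CPM), and *Il18rap* (101 CPM). The neutrophil gate held 367908 UMIs of all genes, so its *Il1r1* level rests on few UMIs. *Il1r2*, which binds IL-1 without signaling, was next in cDC2 at 681 CPM and at 6.51 CPM in resident-like macrophages. Its order thus began and ended with the same gates as that of *Il1b*, and it was among the neutrophil markers checked. The signaling receptor *Il1r1* was at 209 CPM in fibroblasts and at 3.45 CPM or below in all myeloid gates other than neutrophils.

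Migratory DCs led *Il15ra* (79.2 CPM), *Il2ra* (219 CPM), *Stat4* (283 CPM), and *Il12rb2* (16.6 CPM). *Il18bp*, the soluble inhibitor of IL-18, was led by lipid-associated macrophages at 109 CPM, where *Il18* itself was at 11.9 CPM, and was at 3.23 CPM in cDC1. *Il27ra* was led by *Retnla Ear2* cells at 19.5 CPM. The receptors of IL-10 and IL-6 had no leading gate: *Il10ra* was at 37.7 to 128 CPM and *Il6ra* at 23.2 to 179 CPM over the myeloid gates. The inflammasome genes *Nlrp3*, *Pycard*, *Casp1*, and *Gsdmd* had no leading gate, and *Nlrp3* was at 305 CPM in resident-like macrophages, where *Il1b* was lowest, against 674 CPM in neutrophils and 352 CPM in other macrophages. T cells of the CD4/CD8-selected matrix held the shared IL-2 and IL-15 receptor chains *Il2rb* (475 CPM) and *Il2rg* (201 CPM), with *Il27ra* at 37.05 CPM, *Il10ra* at 34.9 CPM, and *Il12rb2* at 15.7 CPM. *Il18r1* was at 230.4 CPM in CD4 and 51.6 CPM in CD8 T cells, and *Il12rb2* at 44.1 and 14.4 CPM.

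**Figure D5:**
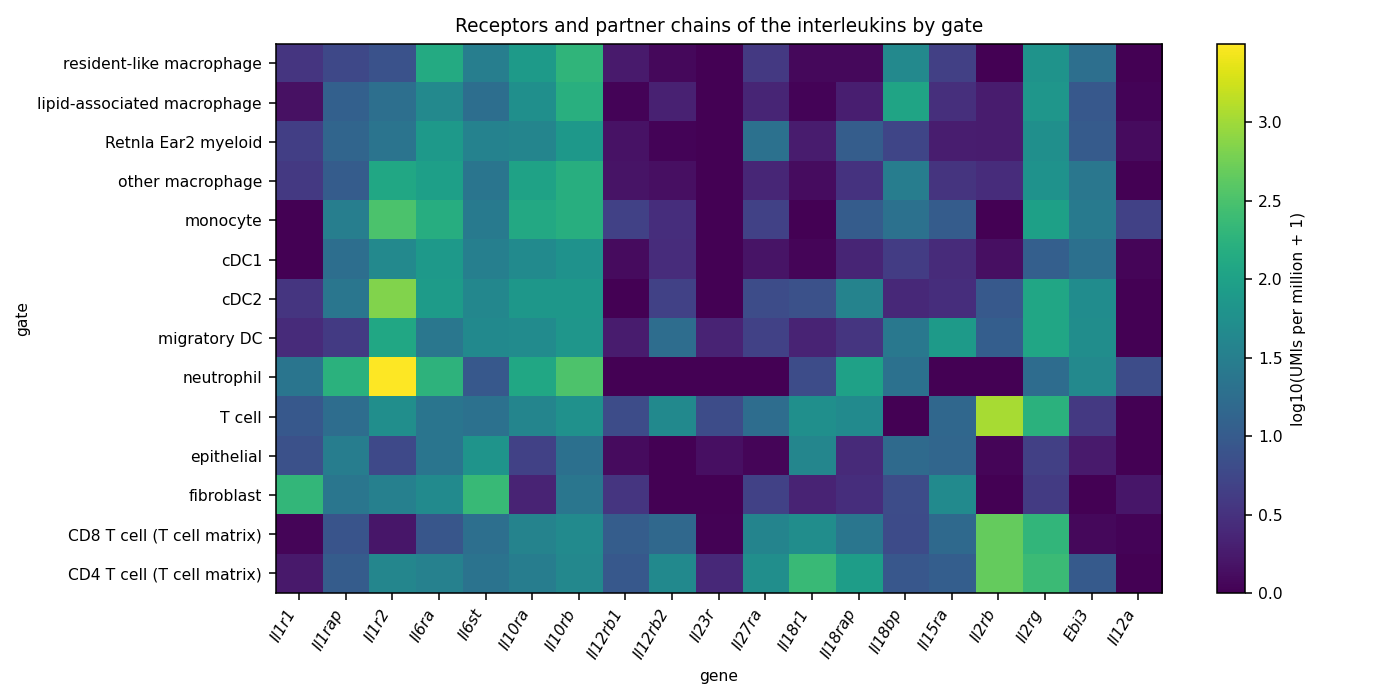
Levels of 19 receptor and partner genes, as log10(UMIs per 1000000 + 1), in 12 gates of the CD11c-selected cells and in CD8 and CD4 T cells of the CD4/CD8-selected matrix (called T cell matrix in the plot). Color gives the level of a gene in a gate and should be read within a column. *Il1r2* is highest in neutrophils (3150.2 CPM), *Il15ra* in migratory DCs (79.2 CPM), and *Il2rb* in T cells.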

How the data were processed

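The authors selected CD11c+ or CD4/CD8 cells from digested tumors with beads and deposited 1 matrix for each selection, which holds raw UMI counts (whole numbers, not normalized) of genes in cells. The submitters' processing notes name Cell Ranger 3.0.2 and mm10. No source used here gives the annotation or a filter on cells. Positions came from GENCODE M21 (GRCm38), which 30497 of 31053 symbols matched. The genes and lists were chosen with earlier results of these data known. Barcodes with under 200 detected genes were left out (341 and 295). Lipid-associated, *Retnla Ear2*, monocyte, and migratory DC gates needed at least 3 UMIs of each of their 2 named markers. Resident-like macrophages needed 3 UMIs over 4 genes, with 2 detected, and 5 C1q UMIs. cDC1 needed 3 UMIs over 2 genes, both detected, and cDC2 3 *Cd209a* UMIs and 1 *Flt3* UMI. Neutrophils needed 10 *S100a8* and *S100a9* UMIs and 2 of *Csf3r*, *Cxcr2*, *Mmp9*, or *Retnlg*. T cells needed 2 UMIs of *Cd3d*, *Cd3e*, or *Cd3g* and 2 of *Trac* or *Trbc2*. Epithelial cells needed 1 *Epcam* UMI and 5 of *Krt8* or *Krt18*, and fibroblasts 10 of *Col1a1* or *Col3a1* and 2 of *Dcn*. Other macrophages needed 20 C1q UMIs and 2 of *Adgre1*, *Mertk*, or *Fcgr1*, and met no other gate. Monocytes, cDC2, and T cells had under 20 C1q UMIs. After the data had been seen, monocytes were limited to cells with 0 UMIs of *Cd3d*, *Cd3e*, *Cd3g*, *Siglech*, and *Ccr9*. No doublet caller was run. Levels were taken only for gates of at least 20 cells, and a count of 0 allows 3 counts. The text names all 10 genes, receptors and partners from a list of 41 genes, and the 3 genes most like each of the 10. No test was run, since each matrix is 1 sample, and shares have exact Clopper-Pearson intervals. Values were computed in Python 3.11.15 with numpy 2.4.6 and scipy 1.17.1, and the call of a leading gate was tested on simulated counts. The alternatives were gate limits raised to 1.5 times, a mean over cells, cells of at least 1000 UMIs and under 10% mitochondrial UMIs, cells of 2 gates placed in 1, each run left out, thinning to 2000 UMIs, and leading folds of 1.5 and 3.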

Additional observations from a re-analysis of the deposited data

Results flagged for a closer look

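These values lie outside the myeloid gates and above every myeloid gate of at least 20 cells in the same matrix, with intervals apart. *Il6* was at 969 CPM in fibroblasts of the CD11c-selected matrix, where the highest myeloid gate was the *Retnla Ear2* cells at 88.6 CPM. In the CD4/CD8-selected matrix *Il6* was at 339 CPM in 68 fibroblasts, against 75.1 CPM in resident-like macrophages. *Il23a* was at 12.8 CPM in epithelial cells of the CD4/CD8-selected matrix, against 1.75 CPM in other macrophages. In the CD11c-selected matrix the epithelial level of *Il23a* was similar, at 13.3 CPM, but its interval overlapped that of the 2 UMIs in neutrophils.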

How the results depend on the processing

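The number of genes with a leading gate was 3, and over the alternatives it lay between 2 and 4. *Il10* and *Il12b* led under every alternative run. *Il10* was at 2.86- to 3.45-fold over other macrophages and *Il12b* at 13.5- to 33.7-fold over cDC1, their next gates in the main analysis. *Il6* ranged from 1.97- to 4.31-fold over resident-like macrophages, its next gate there, and its lead was lost only with the mean over cells. At 1.5-fold *Il1b* joined them, and 31.3% of all genes were called, and at 3-fold the number was 3 and 6.74% were called. Without neutrophils, an alternative added after the data had been seen, *Il27* joined them, and 11.9% of all genes were called. That call rests on 2 *Il27* UMIs in monocytes (3.82 CPM, 0.463 to 13.8). Without monocytes the number was 3 and 16.5% of all genes were called. With the monocyte gate as first written the number was 3 and 15.3% were called. With each run left out in turn it was 3 to 3. Without run 6 *Il1a* in neutrophils was at 43.4 CPM in place of 106 CPM and other macrophages were the highest gate (log2 difference -0.99). *Il18* moved its highest gate between cDC1, monocytes, and resident-like macrophages in 3 of 12 alternatives, *Il27* did in 3, and *Il23a* in 1, and *Il27* and *Il23a* rest on 105 and 52 UMIs. In cells thinned to 2000 UMIs *Il6* in the *Retnla Ear2* gate was at 120.5 CPM and *Il10* in resident-like macrophages at 631 CPM. The intervals and floors cover counting error only. No paired analysis was possible because barcodes carry no sample or replicate.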
